A study of Mus musculus with 2 samples.

Results

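The histone cluster genes are the protein-coding genes whose GRCm38 symbols begin with Hist1h, Hist2h, Hist3h or Hist4h. They were found by symbol, and 65 of the 48795 genes in the count table met the rule, 6 for linker histones and 59 for core histones. The annotation holds 67 such genes, and the H2B genes Hist1h2bm and Hist1h2bh were not analysed here, so the sums below are without them. The set was chosen by measured values, since linker histones had low ratios of R2a over R2b in these same libraries, and every such ratio below is a description only. RNA was measured in 1 library of R2a cells, which are CD11c-positive resident macrophages, and 1 library of R2b cells, which are CD11c-negative. Both came from the kidneys of adult wild-type C57BL/6 mice aged 8 weeks with no treatment given in the labels, and the RNA sequenced was a pool from 6 to 8 mice. With 1 library a group no difference has a replicate check, so no p-value is given, and parentheses hold exact 95% intervals, which cover counting error only.

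Nucleosomes hold DNA wrapped around the core histones H2A, H2B, H3 and H4, and linker histone H1 binds where the DNA enters and leaves and favours compact chromatin. Most genes in the histone clusters are replication-dependent: they lack introns, are expressed mainly in S phase, and their mRNA ends in a stem-loop bound by the protein SLBP instead of a poly(A) tail. Libraries made after removal of ribosomal RNA, as here, can hold such mRNA as well as polyadenylated forms. A smaller number of histone genes elsewhere in the genome are replication-independent, with expression that is not tied to S phase.

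Reads on genes numbered 11811923 in R2a against 23915896 in R2b. The 8 macrophage markers checked, among them Csf1r, Adgre1 and Cx3cr1, had reads in both libraries and summed to 5880 CPM in R2a against 7513 in R2b. CPM is the read count of a gene scaled to library size with TMM factors. Itgax, which encodes the sort marker CD11c, stood at 367 CPM in R2a against 48.9 in R2b. Proximal tubule markers also summed to 1489 CPM in R2a against 1616 in R2b, whereas B cell, T cell, erythroid and neutrophil markers each summed to under 5 CPM in both, with 1 T cell and 1 erythroid marker called lower by the rule given below. Endothelial markers summed to 39.7 CPM in R2a against 27.2 in R2b. Among them Pecam1, at 22.7 CPM in R2a against 11.3 in R2b, had a log2 ratio of 0.97, while Kdr had 0.19 and Cdh5 -0.08. Fewer cells of a type and less RNA per cell cannot be told apart in these libraries. The part of other cells in the results below was not tested.

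Histone cluster genes took fewer of the reads in R2a than in R2b, and most of that difference lay in the linker genes. The 65 members summed to 319 CPM in R2a against 626 in R2b, 1.96 times lower in R2a (1.89 to 2.03). The 6 linker genes summed to 142 CPM in R2a against 381 in R2b, 2.69 times lower (2.55 to 2.83). The 59 core genes summed to 177 CPM in R2a against 245 in R2b, 1.38 times lower (1.31 to 1.45). Linker reads were 44.5% of all member reads in R2a (42.9 to 46.1) and 60.9% in R2b (60.1 to 61.7). The ratio of R2a over R2b was therefore 0.514 times as large for linker as for core genes (0.478 to 0.553), a quantity that no scaling of the libraries can alter. Leaving out Hist1h1c, the largest linker gene, gave 0.440.

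**Figure D1:**
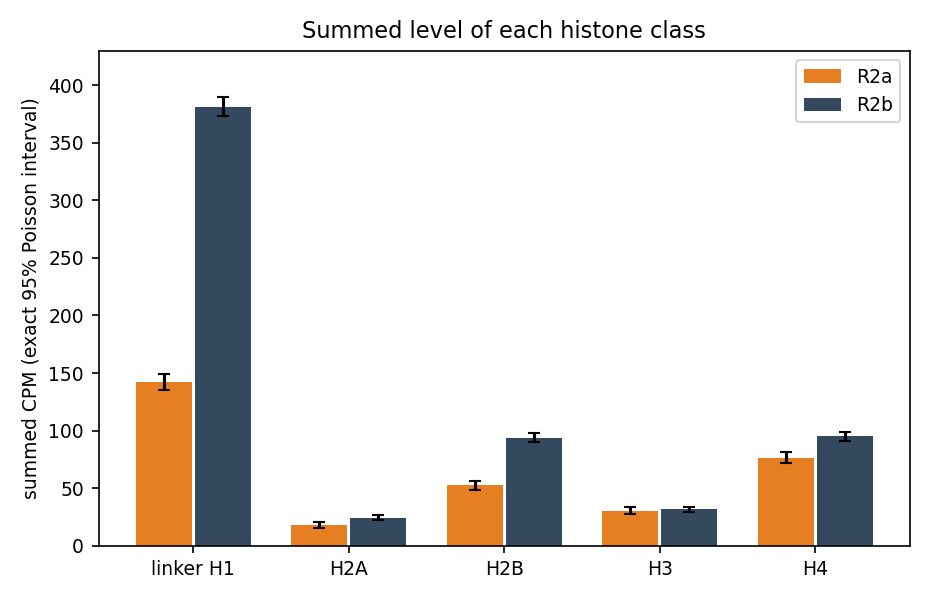
Summed CPM of the histone cluster genes of each class in R2a (left bar) and R2b (right bar), with exact 95% Poisson intervals of the counting error, 1 library each. The linker bars stand at 142 CPM in R2a against 381 in R2b, and the H3 bars at 30.5 and 31.5 CPM.

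A gene was called on 3 conditions. The log2 ratio, taken of CPM plus 0.5, had to reach 1 in either direction, the higher library had to hold 1 CPM or more, and the counting interval had to exclude a ratio of 1. Of the 65 members 36 were over 1 CPM in the higher library. Among these 8 were called lower and 0 higher in R2a, where 1.84% of all 15603 genes over that minimum were called lower and 1.93% higher. The 8 were 4 of 5 linker genes and 4 of 31 core genes. The intervals of 19 members lay wholly below a ratio of 1 and those of 2 above it, against 18.6% and 18.1% of all genes. Log2 ratios were below 0 in 32 of the 36, against 50.8% of all genes. The linker genes in these counts were chosen for low ratios. Among the 31 core genes alone, 14 intervals lay wholly below 1 and 2 above it, and 27 log2 ratios were below 0. Since a member could pass the CPM minimum through 1 library alone, these counts describe the genes that passed and not all members. Single-exon protein-coding genes outside the set, a class added after the data were seen, had 3.1% called lower, 1.77% higher and 59.7% below 0 among 226, with a median log2 ratio of -0.08.

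**Figure D2:**
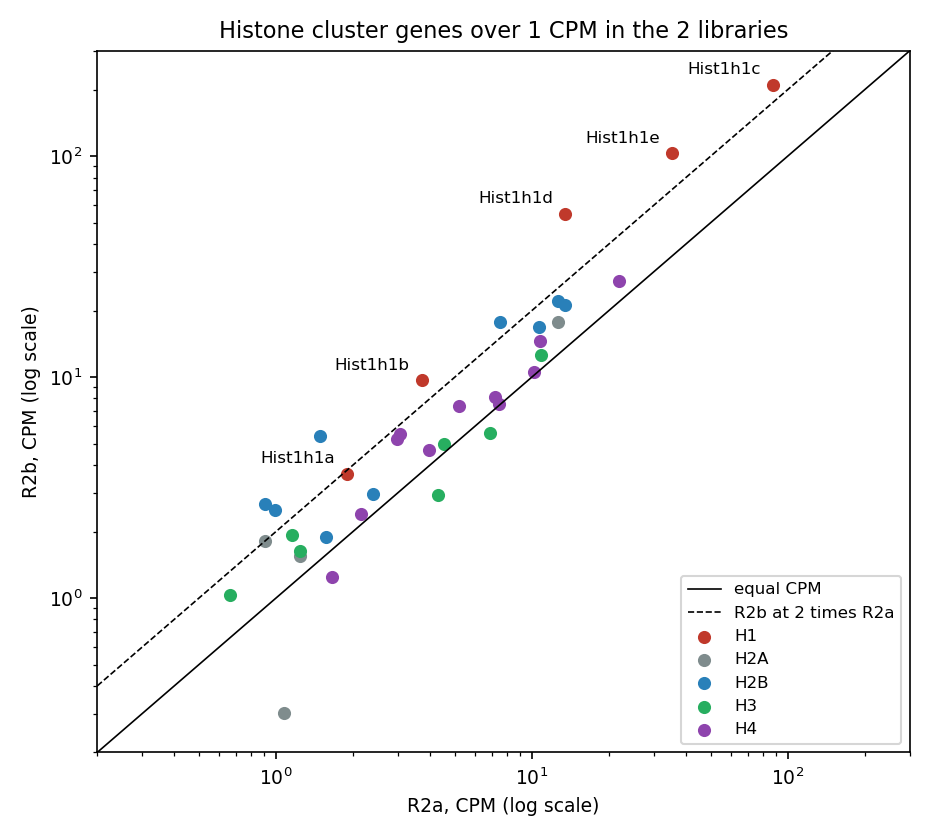
CPM in R2a (horizontal, log scale) and in R2b (vertical, log scale) of the 36 histone cluster genes over 1 CPM, 1 point a gene, coloured by class. The solid line marks equal CPM and the dashed line R2b at 2 times R2a, and 4 of the 5 labelled linker genes lie above the dashed line.

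The linker genes all lie in the Hist1 cluster of chromosome 13. Hist1h1c (ENSMUSG00000036181.2, GRCm38 chr13:23738808-23740367, RefSeq symbol H1f2) was the most abundant member in both libraries. It had 1063 reads in R2a (87.6 CPM) against 4896 in R2b (210 CPM), 2.40 times lower in R2a (2.25 to 2.57). Hist1h1e (ENSMUSG00000051627.2, chr13:23620629-23622558, H1f4) had 429 reads in R2a (35.3 CPM) against 2393 in R2b (103 CPM), 2.91 times lower (2.62 to 3.23). Its annotated exons overlap Hist1h2be and Gm11398 on the same strand, and how such reads were counted is not stated. Hist1h1d (ENSMUSG00000052565.6, chr13:23553262-23560686, H1f3) had 164 reads in R2a (13.5 CPM) against 1275 in R2b (54.8 CPM), 4.06 times lower (3.44 to 4.80). These 3 genes carry most linker reads, and in each of them R2a was the lower library. All 3 encode H1 subtypes found widely in somatic cells.

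Hist1h1b (ENSMUSG00000058773.2, chr13:21779883-21780625, H1f5), another somatic subtype, had 45 reads in R2a (3.71 CPM) against 225 in R2b (9.67 CPM), 2.61 times lower (1.89 to 3.68). Hist1h1a (ENSMUSG00000049539.2, chr13:23763666-23764406, H1f1) had 23 reads in R2a (1.89 CPM) against 85 in R2b (3.65 CPM). Its log2 ratio of -0.79 did not reach the size rule, while its interval of 0.312 to 0.830 lay below 1. Hist1h1t (ENSMUSG00000036211.3, chr13:23695814-23696725, H1f6), the subtype of the testis, had 0 reads in R2a against 2 in R2b, both under the floor of 3 counts. The linker genes that were measured therefore ran the same way, with log2 ratios of -1.98 to -0.79 and a median of -1.27. The median of all genes was -0.01. In the order of log2 ratios of all 15603 genes, 16 lay below Hist1h1d, 63 below Hist1h1e and 131 below Hist1h1c. Hist1h1b stood between Hist1h1e and Hist1h1c in this order, and Hist1h1a stood higher than the other measured linker genes. Linker genes were chosen for low ratios in these same libraries, so their positions restate that choice and are a description only.

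The makeup of the linker pool differed between the libraries in the share of Hist1h1d. It gave 9.51% of linker reads in R2a and 14.4% in R2b. Hist1h1c gave 61.7% in R2a (59.3 to 64.0) and 55.2% in R2b (54.1 to 56.2). Of the 10 pairs among the 5 measured linker genes, 5 had ratios whose counting intervals did not include equality. Hist1h1d was the lower gene in 4 of them. Against Hist1h1e its ratio was 0.717 times as large (0.588 to 0.872). Hist1h1c exceeded Hist1h1e in ratio by 1.21 times (1.07 to 1.37). Intervals of pairs were not adjusted for their number.

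Levels between genes were compared as CPM per kilobase of annotated exon. Hist1h1c stood at 56.1 CPM per kb in R2a and 135 in R2b, first of the 65 members in both on this length. Hist1h1e was at rank 5 of the members in R2a, at 18.3 CPM per kb, and at rank 2 in R2b, at 53.3. Hist1h1d stood at 1.82 CPM per kb in R2a and 7.38 in R2b, but its annotated exon of 7425 bases is far longer than the 776 bases of the RefSeq gene. On RefSeq length Hist1h1d stood at 17.4 CPM per kb in R2a and 70.6 in R2b, below Hist1h1c and Hist1h1e on the same kind of length in both libraries. Reads of the Hist1h1d exon outside the RefSeq gene cannot be told from reads of the gene itself in these counts.

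Upstream sequences are shown for the 6 linker genes because the measured ones had low ratios together. Each is the run of 250 bases before the RefSeq start on GRCm38.p6, 5′ to 3′ on the strand of the gene, with 3 kinds of motif in capitals on either strand: the H1 box spelled AAACACA, the CCAAT box, and the TATA box searched as TATAAA. The window of Hist1h1d lies inside its longer GENCODE gene.
Hist1h1a (chr13:23763418-23763667, + strand): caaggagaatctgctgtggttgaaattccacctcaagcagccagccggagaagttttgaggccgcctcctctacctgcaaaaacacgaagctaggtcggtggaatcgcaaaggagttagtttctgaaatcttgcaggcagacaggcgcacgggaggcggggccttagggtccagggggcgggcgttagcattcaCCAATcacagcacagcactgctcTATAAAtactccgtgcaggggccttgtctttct
Hist1h1b (chr13:21780626-21780875, - strand): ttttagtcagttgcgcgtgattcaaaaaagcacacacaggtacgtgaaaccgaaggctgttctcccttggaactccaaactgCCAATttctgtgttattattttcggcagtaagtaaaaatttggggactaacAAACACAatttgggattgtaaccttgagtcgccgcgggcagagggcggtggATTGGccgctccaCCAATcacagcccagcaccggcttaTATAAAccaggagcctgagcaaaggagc
Hist1h1c (chr13:23738557-23738806, + strand): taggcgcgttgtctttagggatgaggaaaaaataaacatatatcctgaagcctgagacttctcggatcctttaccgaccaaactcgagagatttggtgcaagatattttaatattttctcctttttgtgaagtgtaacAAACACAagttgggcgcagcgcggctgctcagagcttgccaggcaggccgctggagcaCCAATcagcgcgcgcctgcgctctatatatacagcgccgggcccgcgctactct
Hist1h1d (chr13:23554782-23555031, + strand): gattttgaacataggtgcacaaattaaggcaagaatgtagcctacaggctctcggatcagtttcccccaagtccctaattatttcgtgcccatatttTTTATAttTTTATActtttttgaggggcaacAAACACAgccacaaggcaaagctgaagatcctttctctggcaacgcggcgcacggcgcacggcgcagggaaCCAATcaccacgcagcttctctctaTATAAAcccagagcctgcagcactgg
Hist1h1e (chr13:23622559-23622808, - strand): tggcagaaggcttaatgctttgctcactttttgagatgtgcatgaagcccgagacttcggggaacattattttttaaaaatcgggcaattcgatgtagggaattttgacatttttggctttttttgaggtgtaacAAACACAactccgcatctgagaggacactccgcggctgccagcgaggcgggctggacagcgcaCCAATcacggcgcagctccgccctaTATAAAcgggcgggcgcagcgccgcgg
Hist1h1t (chr13:23695561-23695810, + strand): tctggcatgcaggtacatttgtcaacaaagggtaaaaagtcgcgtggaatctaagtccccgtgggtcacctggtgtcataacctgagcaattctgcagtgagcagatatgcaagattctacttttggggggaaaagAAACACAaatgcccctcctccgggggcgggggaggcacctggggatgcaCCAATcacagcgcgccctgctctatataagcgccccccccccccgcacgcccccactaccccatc

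The H1 box was found upstream of 5 of the 6 linker genes and began 112 to 122 bases before the start in each. It was found in 3 of 53 core promoters with a matched window and in 6.25% of 32851 RefSeq promoters of the same length. The window of Hist1h1a did not hold these letters. All 6 linker windows held CCAAT, with a copy 51 to 65 bases before the start. CCAAT was also in all 17 H2A and all 14 H2B windows, in 8 of 10 H3 windows, in 3 of 12 H4 windows and in 33.8% of all promoters. TATAAA was in 4 linker windows, in 25 of 53 core windows and in 12.4% of all promoters. The octamer ATTTGCAT was in 0 linker windows, 7 H2A and 5 H2B windows and 1.60% of all promoters, and GGTCC in 11 of 12 H4 windows, 1 linker window and 39.8% of all. Motifs were searched on both strands. Windows of some neighbouring genes overlap, as for Hist1h2ag and Hist1h2bj and for Hist1h2aa and Hist1h2ba, so a site can count for both genes. The H1 box counted for Hist1h2aa and for Hist1h2ba lies in such an overlap. A match is a description and not a binding site.

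The stem-loop at the mRNA end is shown for the linker genes in which it was found and for 3 core genes of differing ratio. Each run is 26 bases of the GENCODE transcript (GRCm38), 5′ to 3′, with the 16 bases of the stem-loop in capitals.
Hist1h1c (chr13:23739507-23739532, + strand): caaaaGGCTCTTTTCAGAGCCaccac
Hist1h1d (chr13:23555782-23555807, + strand): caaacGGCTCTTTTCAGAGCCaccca
Hist1h1e (chr13:23621777-23621802, - strand): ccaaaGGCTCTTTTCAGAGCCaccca
Hist1h1t (chr13:23696520-23696545, + strand): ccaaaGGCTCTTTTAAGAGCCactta
Hist1h2bg (chr13:23571838-23571863, + strand): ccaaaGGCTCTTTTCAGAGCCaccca
Hist3h2ba (chr11:58949344-58949369, + strand): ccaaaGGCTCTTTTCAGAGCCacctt
Hist1h4d (chr13:23581945-23581970, + strand): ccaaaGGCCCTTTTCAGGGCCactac

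The search was for the histone stem-loop, with 6 base pairs in the stem, within 200 bases after the stop codon. It found the stem-loop in 42 of 65 members. Without the position limit it was found in 1.33% of 21567 other protein-coding genes. The same 16 bases occur in Hist1h1c, Hist1h1d and Hist1h1e as in the core genes Hist1h2bg and Hist3h2ba. No match says only that the motif is not in this window of the transcript model. Some models run on past it, by 840 bases in Hist1h1c, 1153 in Hist1h1e and 4884 in Hist1h1d. Among core genes, the 18 with over 100 annotated bases past the stem-loop had a summed ratio of 0.729 (0.684 to 0.776). The 20 with a stem-loop and up to 100 bases past it had 0.864 (0.764 to 0.977), and the 21 in which none was found had the lowest of the 3 values, 0.614 (0.547 to 0.689). In this last group the H2B genes Hist1h2bc and Hist2h2be gave 512 and 391 of the 1224 reads in R2b. H2B had the lowest ratio of the core classes, and the part of histone class in these values was not tested. Gene counts do not tell the polyadenylated from the stem-loop form.

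Among the core classes H2B had the lowest ratio and H3 the highest. The 16 H2B genes summed to 52.3 CPM in R2a against 93.9 in R2b, 1.80 times lower in R2a (1.64 to 1.96). The 18 H2A genes summed to 18.0 CPM in R2a against 24.2 in R2b, with a ratio of 0.744 (0.634 to 0.872). The 13 H4 genes had 927 reads in R2a and 2210 reads in R2b, a ratio of 0.804 (0.744 to 0.869). The 12 H3 genes summed to 30.5 CPM in R2a against 31.5 in R2b, with a ratio of 0.966 (0.851 to 1.10). The ratio of the H1 class was 0.669 times that of H2B (0.603 to 0.742) and 0.385 times that of H3 (0.336 to 0.442). The ratio of H2B was 0.693 times that of H4 (0.615 to 0.780). Of the 10 pairs of classes, the interval included equality in 1, H2A against H4, at 0.926 (0.774 to 1.10).

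All 4 core genes called lower in R2a encode H2B. Hist3h2ba (ENSMUSG00000056895.4, chr11:58948920-58949533) had 18 reads in R2a (1.48 CPM) against 126 in R2b (5.41 CPM), 3.65 times lower (2.22 to 6.36). Hist1h2be (ENSMUSG00000047246.6, chr13:23583670-23621124) had 91 reads in R2a (7.50 CPM) against 415 in R2b (17.8 CPM), 2.38 times lower (1.89 to 3.02). The annotated exons of Hist1h2be overlap Hist1h1e on the same strand, so its reads are uncertain. Hist1h2bf had 11 reads in R2a against 62 in R2b, and Hist1h2bj 12 in R2a and 58 in R2b. The ratio of Hist1h2bf was 0.340 (0.162 to 0.652) and that of Hist1h2bj 0.397 (0.194 to 0.747). Both are under 5 CPM in each library, and both have under 50% of windows of their own. Hist1h2bj, at a log2 ratio of -1.01, was called lower under 6 of the 12 settings tried, and not under total-count or DESeq2 scaling.

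The measured H2B genes that were not called had smaller differences, at higher and at lower levels. Hist1h2bb stood at 2.39 CPM in R2a against 2.96 in R2b, a log2 ratio of -0.26. Hist1h2bn stood at 1.57 CPM in R2a against 1.89 in R2b, a log2 ratio of -0.21. Hist1h2bg stood at 13.5 CPM in R2a against 21.2 in R2b, a log2 ratio of -0.63. Hist1h2bc stood at 12.7 CPM in R2a against 22.0 in R2b, a log2 ratio of -0.77. Hist2h2be, on chromosome 3, stood at 10.7 CPM in R2a against 16.8 in R2b, a log2 ratio of -0.63. The log2 ratios of all 9 measured H2B genes were below 0, from -1.58 to -0.21, against 50.8% of all genes below 0.

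None of the H4 or H3 genes was called in either direction, where 1.84% of all genes were called lower and 1.93% higher. The H4 gene with most reads was Hist1h4d at 21.8 CPM in R2a against 27.3 in R2b, with a log2 ratio of -0.32. Hist1h4c stood at 10.8 CPM in R2a against 14.5 in R2b, with a log2 ratio of -0.41, and Hist1h4h at 10.2 CPM in R2a against 10.5 in R2b, where the log2 ratio was -0.04. The lowest H4 ratios were -0.76 for Hist1h4k and -0.73 for Hist1h4a. Hist1h4i had a log2 ratio of -0.48 and Hist1h4n -0.22. Hist2h4 had -0.03 and Hist1h4j, with 20 reads in R2a and 29 in R2b, 0.30. Intervals of 5 of the 11 measured H4 genes lay wholly below 1, against 18.6% of all genes.

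Of the H3 genes, Hist1h3e stood at 10.9 CPM in R2a against 12.5 in R2b, a log2 ratio of -0.20. Hist1h3a stood at 6.84 CPM in R2a against 5.59 in R2b, a log2 ratio of 0.27 with an interval of the ratio from 0.918 to 1.62. Hist1h3f had 52 reads in R2a against 68 in R2b, 1.47-fold higher (1.002 to 2.14). Of the H2A genes, Hist3h2a on chromosome 11 gave most reads, at 12.6 CPM in R2a against 17.8 in R2b, with a log2 ratio of -0.48, and its exons overlap Trim17 on the same strand. Hist1h2ae had 13 reads in R2a against 7 in R2b, 3.56-fold higher (1.32 to 10.5). It had the highest log2 ratio of the 36 measured members, 0.97, just under the size rule, and it overlaps Gm44394 on the opposite strand.

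**Figure D3:**
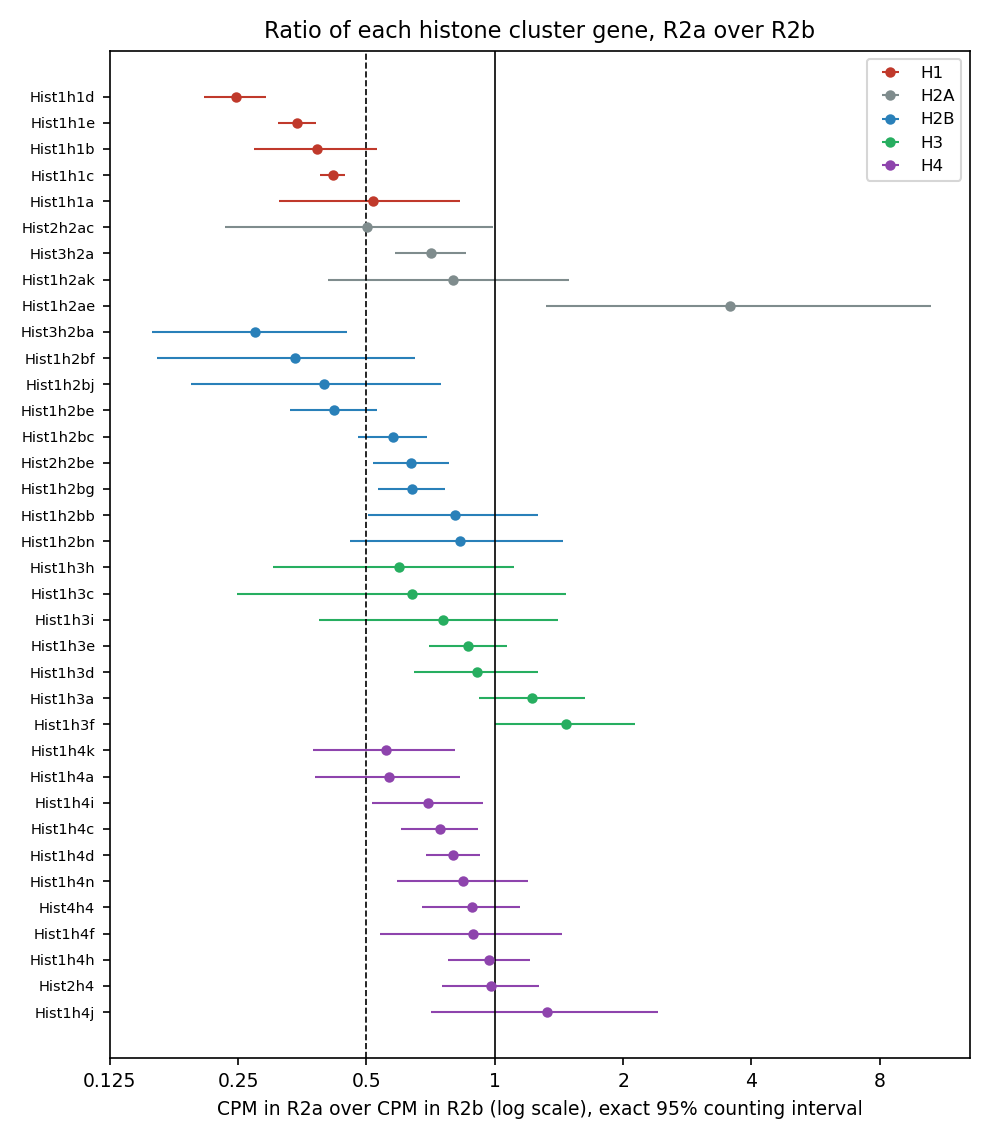
Ratio of CPM in R2a over CPM in R2b (horizontal, log scale) for the 36 histone cluster genes over 1 CPM, ordered by class and then by ratio. Bars are exact 95% counting intervals, the solid line marks a ratio of 1 and the dashed line 0.5; the 4 called linker genes and Hist3h2ba, Hist1h2bf, Hist1h2bj and Hist1h2be lie left of the dashed line.

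The Hist1 members lie in a first block (chr13:21715763-22043676) of 22 genes and a second block (chr13:23531050-23934851) of 30. Core genes had a summed ratio of 0.717 (0.619 to 0.829) in the first block and 0.734 (0.689 to 0.781) in the second. The 10 core genes on chromosome 3 had 0.729 (0.625 to 0.848), the pair on chromosome 11 had 0.607 (0.508 to 0.722) and Hist4h4 on chromosome 6 had 0.883 (0.677 to 1.14). The linker gene of the first block, Hist1h1b, had a ratio of 0.383 (0.272 to 0.530), and the 5 linker genes of the second block together had 0.372 (0.353 to 0.392). In both blocks of chromosome 13 the linker interval lay below the core interval.

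Sequence shared with other annotated genes was more frequent in the core genes than in the linker genes. Reads with several alignments were not assigned to genes. Windows of the read length of 75 bases were therefore compared with all other annotated transcripts, on both strands. A shared window can come from a copy elsewhere or from a gene overlapping at the same place, and the share does not separate them. Hist2h2bb, at 0% unique windows, overlaps Gm42743 and Gm20628, and Hist1h1e, at 71.6%, overlaps Hist1h2be and Gm11398. The share of 75-base windows found in no other gene was 71.6% to 100% in the linker genes, with a median of 99.3%. In the core genes it was 0% to 100% with a median of 44.6%. Of the 12 members at 0 reads in both libraries 9 had under 50% unique windows, and 5 members had 0 unique windows. The other 3 at 0 are Hist1h2aa, Hist1h2ba and Hist1h3g, of which the first and second encode testis histones. A further 17 members had a read but were under 1 CPM in both libraries, and 14 of these had under 50% unique windows. Core genes with at least 50% unique windows had a summed ratio of 0.725 (0.687 to 0.766) and those with fewer 0.718 (0.631 to 0.817). Exons of 24 members overlapped another annotated gene on either strand. The coding sequences of the 6 linker genes were 60.3% to 83.9% identical in pairs, with Hist1h1d and Hist1h1e the closest.

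On levels per kilobase of GENCODE exon the leading core genes stood below Hist1h1c. In R2a the order after Hist1h1c was Hist1h2bg at 21.9 CPM per kb, Hist1h4h at 21.7, Hist1h4d at 19.2 and Hist1h1e at 18.3. In R2b it was Hist1h1e at 53.3, Hist1h2bg at 34.3, Hist1h4d at 24.0 and Hist1h4h at 22.4. This order rests on GENCODE exon lengths and on counts not corrected for windows shared between genes. Hist1h4n, for example, at 9.20 CPM per kb in R2a, had 16.6% unique windows, against 93.3% in Hist1h1c. On RefSeq length Hist1h1d stood above Hist1h2bg, Hist1h4d and Hist1h4h in R2b, at 70.6 CPM per kb, and below them in R2a, at 17.4. The values of those core genes are on GENCODE length, so the lengths compared are unlike.

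Histone genes outside the clusters were read from a list beside the members. H1f0, the replication-independent linker histone that accumulates in differentiated cells, stood at 50.7 CPM in R2a against 98.7 in R2b, 1.95 times lower (1.78 to 2.13). Its log2 ratio of -0.96 lay just short of the size rule. The linker gene H1fx had 1 read in R2a and 3 in R2b, and the other 3 listed linker genes had none. The 8 measured core variants had a median log2 ratio of -0.10. Of these 1 was called lower and 0 higher, against 1.84% and 1.93% of all genes. The called variant was H2afx, which is phosphorylated at DNA breaks, at 4.45 CPM in R2a against 10.1 in R2b, 2.27 times lower (1.68 to 3.11). H3f3b, which encodes replacement H3, was the most abundant at 525 CPM in R2a against 779 in R2b, a log2 ratio of -0.57. H3f3a, which encodes the same protein, stood at 45.6 CPM in R2a against 45.8 in R2b. The centromeric variant Cenpa had a log2 ratio of -0.52, H2afj 0.24, H2afz 0.06 and H2afy, the macroH2A gene, 0.18.

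Genes of the histone mRNA and chromatin pathways stood closer to equality than the linker genes. Of 21 measured factors of histone mRNA processing 0 were called, with a median log2 ratio of -0.06. Of all genes, 1.84% were called lower and 1.93% higher, so a count of 0 does not set a list of this size apart. Lsm11, a subunit of the U7 particle that cuts histone mRNA, had -0.57, and Coil had -0.26, Cstf2t -0.25 and Srrt 0.23. Of 27 genes in the list of histone chaperones and their partners 0 were called, against the same shares, with a median of -0.02. Among them Fam122a had -0.57, Daxx 0.39, Mms22l 0.34 and Npm1 0.29. Among 14 chromatin partners 0 were called lower and 1 higher, against 1.84% and 1.93% of all genes, and the median was -0.08. The nucleosome-binding gene Hmgn5 was called higher, with 22 reads in R2a and 9 in R2b, and Hmgn1 had a log2 ratio of -0.36, Suv39h2 -0.31, Suv39h1 -0.27 and Hmgn2 -0.27.

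The medians of cell cycle genes lay at or above 0. Of all genes over the CPM minimum, 1.84% were called lower and 1.93% higher. Of 47 measured genes of DNA replication and S phase 1 was called lower and 0 higher, with a median log2 ratio of 0.00. The called gene was Mcm10, with 10 reads in R2a and 51 in R2b. The helicase gene Hells had a log2 ratio of 0.72, the DNA polymerase subunit Pold1 -0.51, Gins3 -0.41 and the ligase Lig1 -0.38. Of 21 genes of G2 and mitosis 2 were called higher, with a median of 0.20. These were the cyclin Ccna2, with 23 reads in R2a and 8 in R2b, and Birc5, with 15 in R2a and 5 in R2b. Mki67 had a log2 ratio of 0.39, Bub1b 0.31, Anln 0.20 and Ncapd2 0.16. Of the 21 genes 6 had log2 ratios below 0, against 50.8% of all genes. Among them were the mitotic kinase gene Aurka at -0.81, with 22 reads in R2a against 83 in R2b, and the cyclin gene Ccnb2 at -0.88, with 10 in R2a against 45 in R2b, whose intervals lay below a ratio of 1. Aurkb had -0.54 and Tpx2 -0.53, with intervals that included 1. The 4 markers of proliferating cells summed to 31.6 CPM in R2a against 24.4 in R2b, and their part in the histone values was not tested.

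**Figure D4:**
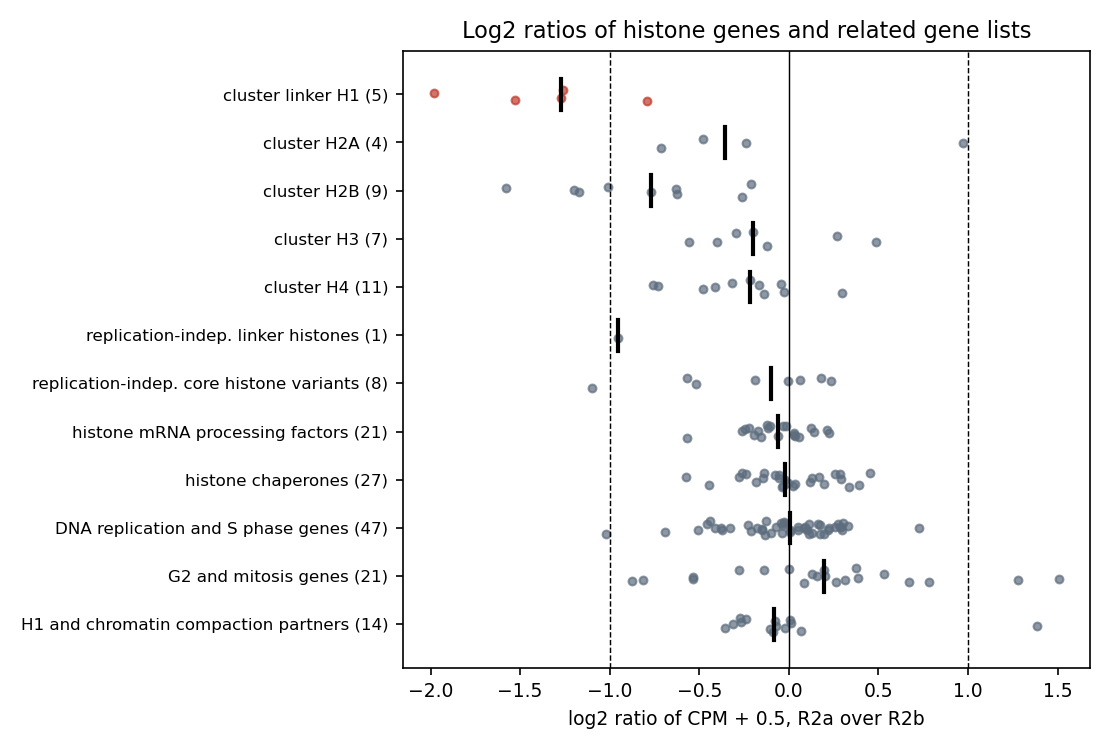
Log2 ratio of CPM plus 0.5, R2a over R2b, for each gene over 1 CPM in the histone classes and the related lists, 1 point a gene, with the number of genes in brackets. Thick bars are medians and dashed lines the size rule; the median stands at -1.27 for the cluster linker genes, -0.77 for H2B and 0.20 for genes of G2 and mitosis.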

How the data were processed

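Per the labels' protocols, kidneys were digested, cells were sorted by flow cytometry and libraries were made with ribosomal RNA reduction and read as paired ends of 75 bases. The authors deposited raw read counts, whole numbers for every gene. Per the submitters' processing notes, the tools were bcl2fastq 2.18.0.12, STAR 2.5.3, HTSeq 0.9.1 and DESeq2, on build GRCm38. No source used here states the annotation release, the strand setting or the counting mode, so reads of overlapping genes on opposite strands cannot be told apart.

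Symbols, positions, exons and transcripts came from GENCODE M21 (GRCm38). Of 48795 gene rows 48349 matched without version, and 446 did not. The 5 summary rows of the counter stayed out of every total. With those rows counted in, reads outside annotated genes made 41.2% of the R2a and 38.9% of the R2b table. Promoters came from RefSeq (GRCm38.p6), matched for 59 of 65 members within 2000 bases of the gene start. Identity between linker genes was computed on coding sequences, since protein sequences were not used here.

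Counts were scaled with TMM (edgeR 4.0.16, R 4.3.3). The log2 ratio used CPM plus 0.5, which understates the change of low genes. Folds are ratios of CPM without it, and intervals are Clopper-Pearson (scipy 1.17.1). Ratios of ratios have exact conditional intervals. Without molecular identifiers PCR copies cannot be set apart, and intervals and floors hold counting error alone. The floor of 3 counts is 0.254 CPM in R2a and 0.125 CPM in R2b before scaling. With 1 library a group, neither edgeR nor DESeq2 gives a test. Counts of R2a against R2b over 24615 genes were also simulated with Poisson counting error alone. In them 50 of 50 genes set 3-fold higher and 47 of 50 set 3-fold lower were called, and 14 of 15148 unchanged genes were called. The simulation holds no variation between animals or libraries, so these counts are not error rates of the calls in the real libraries.

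The members and lists were chosen with earlier results of these data known. Genes named were every linker gene, the 12 core genes with most reads per kilobase, the 6 highest and 6 lowest core ratios, called members, and of each of 7 lists up to 4 with the largest ratios at 5 CPM or more. Other list genes named beside them (H3f3a, H2afz, H2afy, H1fx, Aurka, Ccnb2, Aurkb, Tpx2), Hist2h2be and Hist4h4 were chosen after their values were seen. So were Hist1h2bb and Hist1h2bn. Alternatives were 4 other scalings, added values of 0.1 and 2 CPM, CPM minimums of 0 and 5, R2b thinned to R2a, other size rules and subsets of members.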

Additional observations from a re-analysis of the deposited data

Results flagged for a closer look

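Some reads lay outside the compared genes, in numbers over the floor of 3 counts. The histone pseudogene Hist3h2bb-ps, which the rule leaves out, had 17 reads in R2a against 43 in R2b. Reads on no annotated gene took 41.2% of the R2a total and 38.9% of the R2b total. Reads shared by several genes took 2.42% of the R2a total and 2.51% of the R2b total, and reads with several alignments 8.50% and 8.33% of the same totals. How many of these came from histone genes cannot be told from the counts.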

How the results depend on the processing

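No paired analysis was possible because each group has 1 library. Hist1h1b, Hist1h1c, Hist1h1d, Hist1h1e, Hist1h2be and Hist3h2ba were called lower under 11 of the 12 settings that keep all members, and under the 4-fold rule none was. Against 8 members lower and 0 higher, the 1.5-fold rule gave 15 and 1 and the 4-fold rule 0 lower. Of all genes over the CPM minimum, 1.84% were called lower and 1.93% higher under the main rule. No such share is given for the other settings, so the counts under them cannot be set against all genes. Core genes called lower numbered 4, and 10 at 1.5-fold, 0 at 4-fold, 2 with an added 2 CPM, 2 with a minimum of 5 CPM and 2 with members of at least 50% unique windows. Linker genes called lower were 4, and 0 at 4-fold. Total-count scaling, the library size without technical gene classes, an added 0.1 CPM and the thinned R2b library each gave 1 member higher, Hist1h2ae. Total-count scaling, which shifts log2 ratios up by 0.08, gave summed ratios of 0.393 for linker and 0.765 for core genes. Without Hist1h1c the linker ratio was 0.318 and the linker over core ratio 0.440. The linker median was -1.40 with a minimum of 5 CPM, and the core median -0.48 with that minimum and -0.19 with an added 2 CPM. The 7 lists held 160 genes of the count table, and those under the CPM minimum could not be called under the main rule. Of the 160 genes 5 were called, against 11 at 1.5-fold, 0 at 4-fold, 0 with an added 2 CPM and 1 with a minimum of 5 CPM. The log2 scale with an added value and the CPM minimum change which low genes can be called by construction. Restricting to members with no exon overlap was chosen after seeing the data.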
